A study of Mus musculus with 18 samples.

Results

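Gata1, Klf1, Epor, Alas2, Tfrc, Slc4a1, Car2 and Epb4.2 (the files' symbol for Epb42), genes of red blood cell development, were followed across all 18 libraries of a mouse embryo series. They were chosen by symbol, as 8 of the 21881 gene symbols in the count tables, and all 8 were among the 16231 symbols with enough reads to be tested. RNA was sequenced from cells of the aorta-gonad-mesonephros (AGM) region, where blood stem cells first appear, of E11 embryos of the C57BL6 BRE-GFP reporter strain. The reporter places green fluorescent protein behind an element that responds to BMP, and cells were sorted as BRE-GFP positive or negative. Sorting also gave 3 populations: HPSC, enriched for hematopoietic progenitor and stem cells (CD31 positive, Kit positive), MC, enriched for mesenchymal cells (CD31 negative, Kit negative), and EC, enriched for endothelial cells (CD31 positive, Kit negative). Each population came from explants cultured with BMP and Hedgehog plus cyclopamine, a Hedgehog pathway inhibitor, from explants cultured in that way without cyclopamine, and from fresh AGM. There was 1 library per combination of population, culture and fraction, every embryo carried the reporter, and the number of embryos pooled for a library is not given in the sources used here.

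Red cell precursors switch on a set of genes under the transcription factors GATA1 and KLF1, survive through erythropoietin signalling, take up iron through the transferrin receptor to build heme, and place an anion exchanger and its anchoring proteins in the membrane. At this stage of mouse development, the circulating red cells are mainly the large primitive cells made in the yolk sac, while definitive precursors are starting to form in the fetal liver. GATA1 is also made by megakaryocytes, mast cells and eosinophils, the transferrin receptor by dividing cells of many kinds, and carbonic anhydrase II by several tissues, so these genes differ in how closely they mark red cells.

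Between 3041249 and 21972063 reads were counted on genes per library, and 10297 to 18816 symbols were detected. Levels are given as CPM, counts scaled to a common library size by TMM, and a count of 0 still allows 3 counts, which is 0.136 to 1.13 CPM depending on the library. HPSC had 450 to 1135 CPM of Kit and 212 to 2682 CPM of Pecam1, which encodes CD31, MC had at most 11.5 CPM of Pecam1 with 20.9 to 187 CPM of Kit, and EC had 93.7 to 1683 CPM of Pecam1 with 42.6 to 219.9 CPM of Kit. The 6 mesenchymal markers summed to 220.5 to 628 CPM in HPSC, 1581 to 4706 CPM in MC and 575 to 3749 CPM in EC. The libraries of fewest detected symbols in each population were BRE-GFP negative HPSC and EC after cyclopamine and fresh BRE-GFP positive MC, with 10297, 11006 and 12028 symbols. In bulk libraries, fewer cells of a type and less RNA per cell cannot be told apart.

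The DNA before a RefSeq start of 4 of the genes is shown because each stretch holds a motif of the kind that GATA1 binds. RefSeq promoter windows (GRCm38.p6, 250 bases before to 50 bases after a start) were matched for 6 of the 8 genes, with 2 windows for Tfrc, and Slc4a1 and Car2 had no entry. The motif was searched as AGATAA or AGATAG and as TGATAA or TGATAG, on both strands, and 1 match, in capitals, lay in the windows of Klf1, Epor, Alas2 and Epb4.2. None lay in the window of Gata1 or those of Tfrc. Of all 32851 windows, 29.8% held a match. The starts used here are those of the RefSeq windows. In GENCODE M21, Klf1 (from 84901928), Alas2 (from 150547375) and Epb4.2 (from 121037072, minus strand) begin before these starts. Part of the 250 bases shown for these genes thus lies inside the annotated gene. With the start as position 0, the matches began at -80 in Klf1 (chr8:84901732-84901981, plus strand), at -54 in Epor (chr9:21963577-21963826, minus strand), at -86 in Alas2 (chrX:150547167-150547416, plus strand) and at -226 in Epb4.2 (chr2:121036878-121037127, minus strand). The 250 bases before each start read 5′ to 3′ as follows.
Klf1: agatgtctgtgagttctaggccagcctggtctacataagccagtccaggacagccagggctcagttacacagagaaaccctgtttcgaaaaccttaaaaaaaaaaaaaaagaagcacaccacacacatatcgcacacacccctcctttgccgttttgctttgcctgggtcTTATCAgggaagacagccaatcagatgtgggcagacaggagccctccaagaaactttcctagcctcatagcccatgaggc
Epor: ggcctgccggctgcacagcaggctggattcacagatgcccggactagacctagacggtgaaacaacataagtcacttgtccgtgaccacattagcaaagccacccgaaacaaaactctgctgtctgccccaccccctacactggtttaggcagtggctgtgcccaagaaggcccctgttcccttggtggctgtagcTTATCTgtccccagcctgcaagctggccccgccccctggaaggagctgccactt
Alas2: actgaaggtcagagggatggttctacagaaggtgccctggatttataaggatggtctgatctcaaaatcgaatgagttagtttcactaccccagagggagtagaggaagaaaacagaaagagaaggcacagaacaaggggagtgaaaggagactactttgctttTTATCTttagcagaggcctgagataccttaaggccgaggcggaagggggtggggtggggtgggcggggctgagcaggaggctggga
Epb4.2: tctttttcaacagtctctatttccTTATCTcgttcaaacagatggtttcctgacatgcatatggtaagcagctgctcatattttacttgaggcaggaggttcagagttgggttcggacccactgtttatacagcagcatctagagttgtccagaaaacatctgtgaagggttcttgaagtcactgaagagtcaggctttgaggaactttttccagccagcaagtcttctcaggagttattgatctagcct

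A CACCC-like motif of the kind bound by KLF1, written CCNCNCCC and searched on both strands, was found 3 times in the window of Gata1, 4 times in those of Epor and Alas2 and 5 and 3 times in the windows of Tfrc. Some of these matches overlap one another by sharing a run of C. The windows of Klf1 and Epb4.2 held none, and 49.5% of all windows held at least 1. Epor and Alas2 were the members with both motifs, which 10.2% of all windows have. A match describes the letters of the window only.

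Gata1, the zinc finger transcription factor gene on chromosome X (7959260 to 7978071, minus strand, GENCODE M21 on GRCm38), was detected in all 18 libraries. BRE-GFP positive HPSC held 71.6 CPM after cyclopamine, 30.0 CPM after explant culture and 19.6 CPM fresh, against 436, 98.2 and 125 CPM in BRE-GFP negative HPSC of the same cultures. Positive MC held 8.18, 16.7 and 0.60 CPM after cyclopamine, after explant culture and fresh, against 59.4, 42.8 and 18.7 CPM in negative MC. Positive EC held 11.1, 61.1 and 36.1 CPM in that order of cultures, against 64.6, 103 and 62.5 CPM in negative EC. The negative library was the higher one in all 9 pairs, and BRE-GFP negative HPSC after cyclopamine stood above every other library.

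Klf1, whose protein is the CACCC-binding factor of red cells (chromosome 8, 84901928 to 84905291, plus strand), was low in every library, at most 6.47 CPM. Its levels were 0.82, 0.67 and 0 CPM in BRE-GFP positive HPSC after cyclopamine, after explant culture and fresh, against 0, 4.21 and 4.17 CPM in negative HPSC. Positive MC had 2.98, 2.09 and 0 CPM, against 6.47, 1.29 and 2.22 CPM in negative MC of the same cultures. Positive EC had 0.68, 0.67 and 0.06 CPM, against 0, 0 and 1.75 CPM in negative EC. All 3 populations overlapped, and 5 of the 18 libraries had no read.

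Epor, the erythropoietin receptor gene (chromosome 9, 21958897 to 21963506, minus strand), was low as well. BRE-GFP positive HPSC showed 0.36, 11.0 and 0.48 CPM after cyclopamine, after explant culture and fresh, against 29.8, 9.61 and 10.6 CPM in negative HPSC. Positive MC showed 2.40, 0.35 and 0 CPM, against 6.94, 3.13 and 2.77 CPM in negative MC. Positive EC showed 5.87, 3.23 and 6.86 CPM, against 16.6, 0.36 and 6.68 CPM in negative EC. In MC the negative libraries all lay above the positive ones, while the fractions overlapped in HPSC and in EC.

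Alas2, which encodes the erythroid enzyme for the opening step of heme synthesis (chromosome X, 150547375 to 150570638, plus strand), separated the populations more than the fractions. It lies over the minus-strand genes Apex2 and Mir3620, and because the strand setting of the counting is not given in the sources used here, reads of these genes cannot be told apart where they overlap. Positive HPSC had 31.5, 109 and 61.9 CPM after cyclopamine, after explant culture and fresh, against 93.1, 75.3 and 114 CPM in negative HPSC. Positive MC had 90.2, 366 and 0.20 CPM, against 202, 322 and 248 CPM in negative MC. Positive EC had 13.4, 22.5 and 9.56 CPM, against 0, 15.8 and 24.0 CPM in negative EC. All 6 HPSC libraries lay above all 6 EC libraries, and 5 of the 6 MC libraries did so too, with fresh BRE-GFP positive MC as the exception.

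Tfrc, the transferrin receptor gene that brings iron into cells (chromosome 16, 32608920 to 32632794, plus strand), was abundant in every library. BRE-GFP positive HPSC carried 211, 199 and 112 CPM after cyclopamine, after explant culture and fresh, against 347, 467 and 198 CPM in negative HPSC. Positive MC carried 223, 105 and 36.0 CPM, against 443, 284 and 108 CPM in negative MC. Positive EC carried 164, 109 and 61.1 CPM, against 826, 261 and 138 CPM in negative EC. The negative cells were higher in all 9 pairs and fresh cells were the lowest within every fraction of every population, while the populations overlapped.

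Slc4a1, the gene of the red cell anion exchanger known as band 3 (chromosome 11, 102348824 to 102366203, minus strand), was most abundant in MC. Positive HPSC had 20.9, 5.81 and 0.48 CPM after cyclopamine, after explant culture and fresh, against 0, 1.43 and 52.1 CPM in negative HPSC. Positive MC had 23.9, 30.1 and 0 CPM, against 100.1, 65.8 and 82.1 CPM in negative MC. Positive EC had 0.08, 6.12 and 12.7 CPM, against 0, 7.82 and 5.25 CPM in negative EC. In MC all 3 negative libraries lay above all 3 positive ones, and in HPSC the order of the fractions was not the same in each culture.

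Epb4.2, the gene of protein 4.2, which ties band 3 to the membrane skeleton (chromosome 2, 121017891 to 121037072, minus strand), had its highest levels in the same MC libraries. Positive HPSC had 0, 1.0 and 0 CPM after cyclopamine, after explant culture and fresh, against 0, 1.43 and 31.1 CPM in negative HPSC. Positive MC had 8.05, 16.7 and 0 CPM, against 49.8, 40.0 and 34.6 CPM in negative MC. Positive EC had 4.97, 4.57 and 1.51 CPM, against 0, 20.8 and 22.9 CPM in negative EC. Among HPSC, fresh BRE-GFP negative cells alone exceeded 1.43 CPM.

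Car2, which encodes carbonic anhydrase II, the enzyme that interconverts carbon dioxide and bicarbonate (chromosome 3, 14886273 to 14900770, plus strand), was the most abundant of the 8 genes per kilobase of exon in every population, by the median. BRE-GFP positive HPSC reached 649, 304 and 317 CPM after cyclopamine, after explant culture and fresh, against 1350.1, 385 and 929 CPM in negative HPSC. Positive MC reached 170.4, 411 and 26.2 CPM, against 1053, 951 and 684 CPM in negative MC. Positive EC reached 46.2, 147 and 58.9 CPM, against 69.8, 59.9 and 115 CPM in negative EC. Every HPSC library lay above every EC library, and fresh BRE-GFP positive MC was the only MC library that did not.

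**Figure D1:**
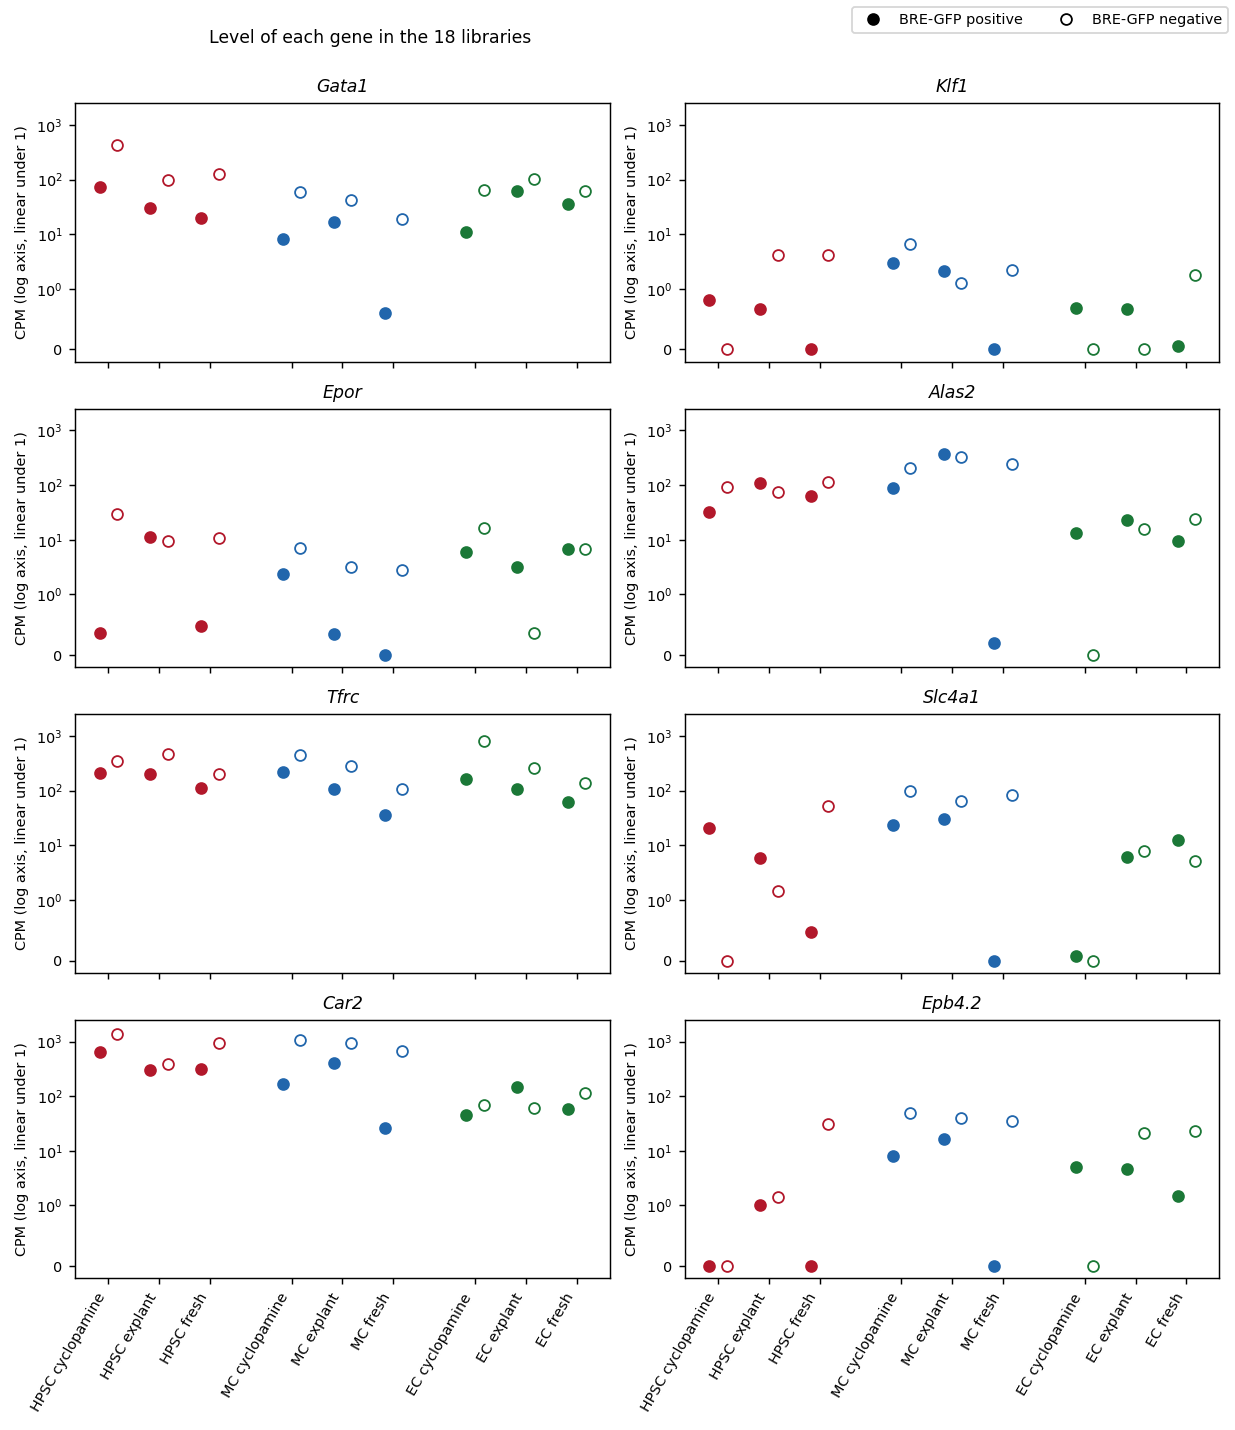
CPM (log axis, linear under 1) of each of the 8 genes in the 18 libraries, with population and culture along the horizontal axis, filled points for BRE-GFP positive and open points for BRE-GFP negative cells, 1 point per library. Tfrc and Gata1 are higher in every open point than in its filled partner, Car2 and Alas2 are low in EC, and fresh BRE-GFP positive MC is at or near 0 for Gata1, Alas2, Slc4a1 and Epb4.2.

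Levels per kilobase of exon allow the genes to be set against each other. In HPSC the medians over 6 libraries were 213 CPM per kilobase for Car2, 35.1 for Alas2, 34.8 for Gata1 and 33.2 for Tfrc, followed by Epor at 5.07, Slc4a1 at 0.74, Klf1 at 0.486 and Epb4.2 at 0.0925. In MC the medians per kilobase were 226 for Car2, 93.5 for Alas2, 26.7 for Tfrc, 9.80 for Slc4a1, 7.26 for Gata1, 4.73 for Epb4.2, 1.41 for Klf1 and 1.30 for Epor. In EC they were 26.8 for Car2, 25.4 for Gata1, 24.4 for Tfrc, 6.08 for Alas2 and 3.15 for Epor, with Slc4a1, Epb4.2 and Klf1 at 1.16, 0.881 and 0.24. Neighbouring genes in these orders overlapped in range, as Alas2 and Gata1 did in HPSC (13.1 to 47.5 and 8.05 to 179 CPM per kilobase), except in HPSC Car2 above Alas2 (126 at the lowest for Car2) and Tfrc above Epor (18.2 at the lowest for Tfrc and 15 at the highest for Epor). Slc4a1 and Epb4.2 stood above Epor in MC and below it in HPSC and EC by the median.

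For HPSC against EC, the libraries were matched by culture and fraction into 6 blocks. Car2 averaged 656 ± 417 CPM in HPSC and 82.8 ± 39.4 CPM in EC (SD, n = 6 libraries each), and was higher in HPSC in 6 of 6 blocks. Its log2 fold change was 2.85 ± 0.55 (SE of the fit, edgeR quasi-likelihood test, Benjamini-Hochberg adjusted p = 0.0389). Car2 was the 1 member of 8 that passed an adjusted p of 0.05, where 0.32% of all tested genes passed. Alas2 averaged 80.9 ± 31.3 CPM in HPSC and 14.2 ± 8.84 CPM in EC, with no overlap and HPSC higher in 6 of 6 blocks, and did not pass (2.58 ± 0.93, edgeR adjusted p = 0.346). Of all tested genes, 0.203% were higher in every HPSC library than in every EC library. Epb4.2 had a fitted log2 fold change of -3.22 ± 1.58 (edgeR adjusted p = 0.555), and the other 5 members gave neither an unadjusted p under 0.05 nor a change of 2 or more. Gata1 was higher in HPSC in 3 blocks and lower in 3. Of the 7 megakaryocyte markers, 2 passed by edgeR, Ppbp (-4.59 ± 0.90) and Tubb1 (-5.28 ± 1.06), both lower in HPSC. Of the 6 tested mast cell and eosinophil markers, 1 passed, Tpsb2, as higher in HPSC (7.63 ± 1.34). The part of these lists in the Gata1 levels was not tested. The median log2 fold change was 0.54 over the 8 members and -0.17 over all tested genes. The Car2 call held without fresh BRE-GFP positive EC (adjusted p = 0.0318) or without fresh BRE-GFP positive MC (0.0208), and ended when any other single library was left out (up to 0.156, without BRE-GFP positive EC after cyclopamine).

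Between HPSC and MC, the regulator Gata1 and the membrane genes had fitted differences of opposite sign. Gata1 averaged 130.1 ± 155 CPM in HPSC and 24.4 ± 22.3 CPM in MC and was higher in HPSC in 6 of 6 blocks (log2 fold change 2.46 ± 0.61, edgeR adjusted p = 0.0163). It was the 1 member of 8 that passed, where 9.95% of all tested genes passed. The share of all tested genes higher in HPSC in every block is not given here. Epb4.2 averaged 5.59 ± 12.5 CPM in HPSC and 24.9 ± 19.6 CPM in MC (-4.50 ± 1.66, edgeR adjusted p = 0.0969). Slc4a1 averaged 13.5 ± 20.5 CPM in HPSC and 50.3 ± 38.4 CPM in MC (-2.68 ± 1.76, adjusted p = 0.377). Tfrc averaged 256 ± 128 CPM in HPSC and 199.8 ± 149 CPM in MC (0.66 ± 0.29, edgeR adjusted p = 0.164). The remaining 4 members met neither printing criterion, and the medians were -0.26 over the members and -0.38 over all tested genes. The Gata1 call ended without BRE-GFP negative HPSC after cyclopamine (adjusted p = 0.0568) or without the BRE-GFP positive cells of that culture (0.0663), and held without each of the other 16 libraries. Tfrc passed without BRE-GFP negative HPSC after cyclopamine (0.87, adjusted p = 0.0352) and Epb4.2 without fresh BRE-GFP negative HPSC (-5.62, adjusted p = 0.0457).

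Markers of other cell types that make GATA1 also summed higher in HPSC than in MC. The 7 megakaryocyte markers summed to 49.1 to 422 CPM (median 339) in HPSC and 6.94 to 37.8 CPM (median 14.6) in MC, and 4 of the 7 passed as higher in HPSC. The mast cell and eosinophil markers summed to 259 to 1245 CPM (median 576) in HPSC and 2.04 to 7.31 CPM (median 2.59) in MC, and 5 of the 6 tested passed as higher in HPSC. Lists of other cell types were higher in HPSC too. By edgeR, all 7 endothelial, all 6 tested macrophage and 6 of the 7 hematopoietic progenitor markers passed in that direction. The part of any of these lists in the Gata1 difference was not tested. In MC, Gp1ba, a platelet receptor gene, reached at most 0.816 CPM and Cpa3, a mast cell protease gene, at most 2.435 CPM.

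For MC against EC, Car2 was again the member that passed. It averaged 549 ± 417 CPM in MC and 82.8 ± 39.4 CPM in EC and was higher in MC in 5 of 6 blocks (2.31 ± 0.56, edgeR adjusted p = 0.0353), 1 member of 8 where 2.54% of all tested genes passed. Alas2 averaged 205 ± 139 CPM in MC and 14.2 ± 8.84 CPM in EC, higher in 5 of 6 blocks (3.64 ± 0.996, edgeR adjusted p = 0.0684). Gata1 was lower in MC in 6 of 6 blocks (24.4 ± 22.3 CPM in MC, 56.5 ± 31.0 CPM in EC; -1.82 ± 0.61, edgeR adjusted p = 0.17), as were 4.97% of all tested genes. The megakaryocyte markers, at 754 to 3486 CPM in sum in EC (median 1067), all 7 passed as lower in MC. The mast cell and eosinophil markers summed to 2.04 to 7.31 CPM in MC and 13.2 to 1903 CPM in EC (median 356), and 3 of the 6 tested, Prg2, Cpa3 and Epx, passed as lower in MC. By edgeR, 6 of the 7 endothelial, all 6 tested macrophage and 2 of the 7 hematopoietic progenitor markers passed as lower in MC too. The part of any of these lists in the Gata1 difference was not tested. Slc4a1 (50.3 ± 38.4 CPM in MC, 5.33 ± 4.84 CPM in EC) and Klf1 (2.51 ± 2.19 CPM in MC, 0.53 ± 0.68 CPM in EC) had log2 fold changes of 3.12 ± 1.98 and 2.23 ± 1.58 and did not pass (adjusted p = 0.633 and 0.692). The median log2 fold change was 1.75 over the 8 members and 0.20 over all tested genes.

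The library that departed from the others here was fresh BRE-GFP positive MC, in which Alas2 stood at 0.20 CPM and Slc4a1 and Epb4.2 at 0. Without it, Car2 had a log2 fold change of 2.70 (edgeR adjusted p = 0.00301) and Alas2 one of 4.05 that passed (0.00517) in MC against EC. The Car2 call ended when any 1 of 11 other libraries was left out (highest adjusted p = 0.135, without BRE-GFP negative EC after explant culture). It held without fresh or explant BRE-GFP positive EC, either cyclopamine HPSC library, BRE-GFP positive explant HPSC, BRE-GFP positive MC after cyclopamine or fresh BRE-GFP positive MC. Since the 3 population comparisons share libraries, their values are not independent.

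**Figure D2:**
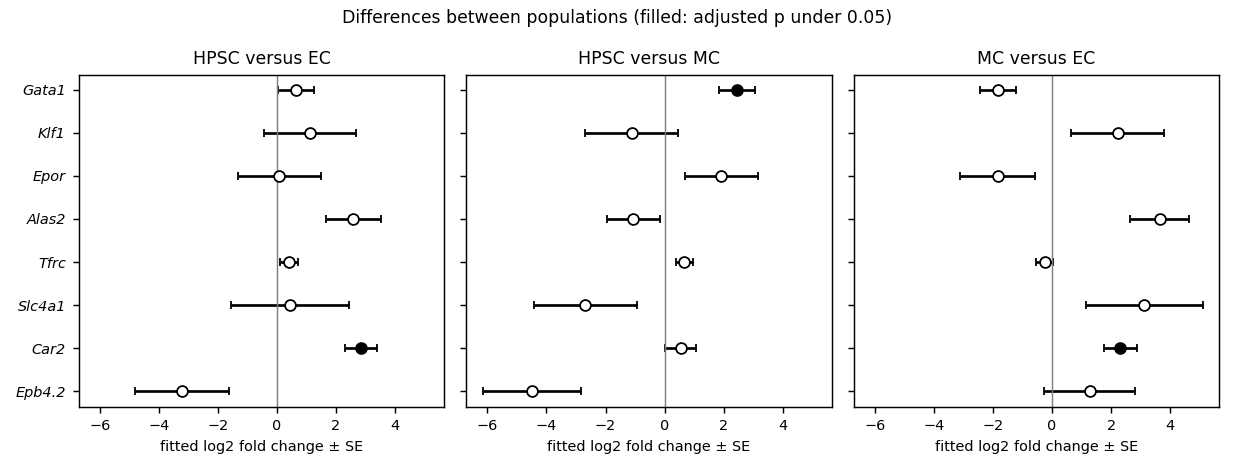
Fitted log2 fold change with its SE (horizontal axis) of each gene (vertical axis) for HPSC over EC, HPSC over MC and MC over EC, 6 blocks each, filled where the adjusted p is under 0.05. The filled points are Car2 at 2.85 for HPSC over EC, Gata1 at 2.46 for HPSC over MC and Car2 at 2.31 for MC over EC, and the widest error bars belong to the low genes Slc4a1, Klf1 and Epb4.2.

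The BRE-GFP fractions were compared in 9 pairs of the same population and culture. All 8 fitted log2 fold changes were below 0, those of Alas2, Slc4a1 and Klf1 by less than their SE. The median was -1.26 over the members and 0.11 over all tested genes. Tfrc was lower in BRE-GFP positive cells in 9 of 9 pairs, at 36.0 to 223 CPM (median 112) in positive and 108 to 826 CPM (median 284) in negative libraries, which overlap when pairs are ignored. It averaged 136 ± 66.9 CPM in positive and 341 ± 220 CPM in negative cells (SD, n = 9 libraries each), with a log2 fold change of -1.28 ± 0.21 (edgeR adjusted p = 0.0432). Tfrc was the 1 member of 8 that passed, where 0.0554% of all tested genes passed.

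Gata1 was also lower in positive cells in 9 of 9 pairs, at 0.60 to 71.6 CPM (median 19.6) in positive and 18.7 to 436 CPM (median 64.6) in negative libraries. Its means were 28.3 ± 24.2 CPM in positive and 112 ± 126 CPM in negative cells, a log2 fold change of -2.16 ± 0.41 that did not pass (edgeR adjusted p = 0.112). These 2 genes were the members lower in every pair, as were 0.345% of all tested genes. Car2 was lower in 8 of 9 pairs (237 ± 205 CPM in positive and 622 ± 482 CPM in negative cells; -1.24 ± 0.45, edgeR adjusted p = 0.756), with explant EC as the exception. Epor (-2.06 ± 1.18) and Epb4.2 (-2.66 ± 1.5) were lower in 6 and 7 of 9 pairs (edgeR adjusted p = 1 for both). Alas2, Slc4a1 and Klf1 were each lower in 5 and higher in 4 pairs, with fitted values of -0.55 ± 0.89, -0.61 ± 1.46 and -1.02 ± 1.81.

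The Tfrc call ended when any single library was left out, with adjusted p between 0.0805 and 0.175 and log2 fold changes between -1.35 and -1.15. By DESeq2 and by limma-voom, both Tfrc (adjusted p = 3.91e-07 and 0.00757) and Gata1 (3.92e-06 and 0.0291) passed, and DESeq2 passed 365 genes in all. Endothelial markers ran the other way: the 7 genes summed to 65.5 to 7115 CPM (median 2952) in positive and 61.7 to 1425 CPM (median 423) in negative libraries, all 7 with positive fitted values (median 1.93), of which none passed by edgeR (6 at an unadjusted p under 0.05), 5 by DESeq2 and 7 by limma-voom. The mast cell and eosinophil markers summed to 2.60 to 349 CPM (median 168) in positive and 2.04 to 1903 CPM (median 802) in negative libraries. Of the 6 tested, 0 passed by edgeR (3 at an unadjusted p under 0.05) and 1 each by DESeq2 and limma-voom. Of the 7 megakaryocyte markers, 0 had an unadjusted p under 0.05 by edgeR and 0 passed by any of these tools. The part of these lists in the differences was not tested.

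**Figure D3:**
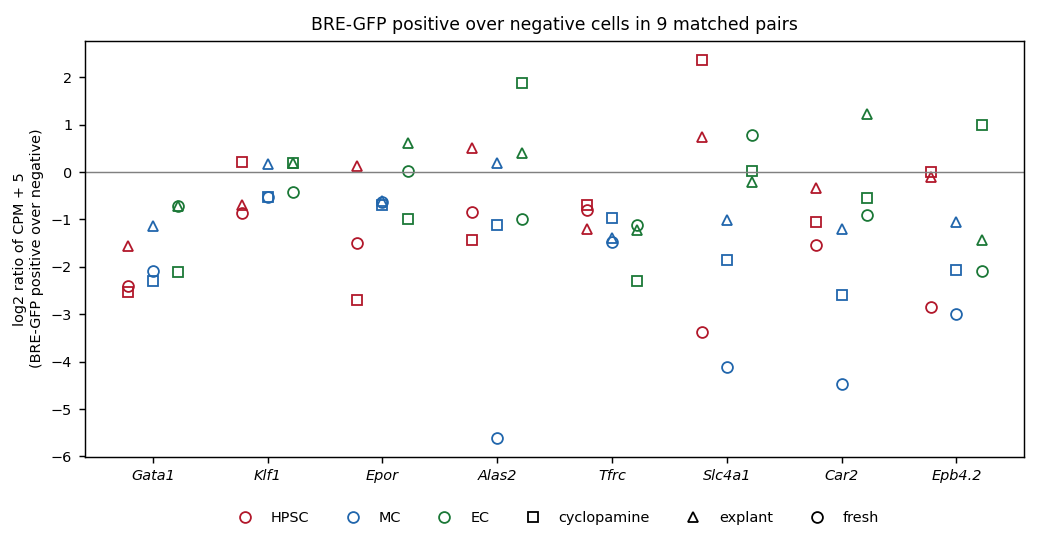
Log2 ratio of CPM + 5, BRE-GFP positive over negative (vertical axis), for each gene (horizontal axis) in 9 pairs of libraries, with colours for populations and symbols for cultures. All 9 points lie below 0 for Gata1 (-2.53 to -0.71) and Tfrc (-2.30 to -0.70), while Alas2 spans -5.60 to 1.88 and Slc4a1 spans -4.12 to 2.37.

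Within single populations, no member passed in the contrast of fractions. Of all tested genes, 0.037% passed in HPSC, 0% in MC and 0.0123% in EC. In HPSC, Gata1 averaged 40.4 ± 27.5 CPM in positive and 219.7 ± 188 CPM in negative cells (-2.33 ± 0.69, edgeR adjusted p = 0.385), and Tfrc had -0.92 ± 0.36 (adjusted p = 0.582). Epor, Epb4.2 and Klf1 had fitted values of -3.78 ± 2.24, -3.91 ± 3.62 and -2.43 ± 3.23 there (edgeR adjusted p = 0.727, 0.809 and 0.884). Leaving out 1 library moved them to between -5.37 and -2.02 for Epor, between -10.05 and -0.43 for Epb4.2 and between -4.49 and -0.18 for Klf1. The lowest of these sizes came without fresh BRE-GFP negative HPSC for Epb4.2 and Klf1 and without BRE-GFP positive HPSC after cyclopamine for Epor. In MC, Car2 averaged 202 ± 194 CPM in positive and 896 ± 190.3 CPM in negative cells (-2.81 ± 0.64). The fitted values there of Gata1 (-2.88 ± 0.75), Epor (-3.20 ± 1.85), Alas2 (-2.09 ± 1.70), Tfrc (-1.34 ± 0.37), Slc4a1 (-3.13 ± 2.17) and Epb4.2 (-3.41 ± 2.44) had, like that of Car2, an edgeR adjusted p of 1. In EC, Tfrc averaged 111 ± 51.5 CPM in positive and 408 ± 367 CPM in negative cells (-1.58 ± 0.37, edgeR adjusted p = 0.864), and Klf1 had 2.08 ± 3.48 (adjusted p = 1).

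Gata1 was the 1 member whose 3 positive libraries all lay below the 3 negative ones in HPSC and in EC, as did 5.21% and 3.92% of all tested genes. In MC this held for 5 members, Gata1, Epor, Slc4a1, Car2 and Epb4.2, and for 3.88% of all tested genes. At an unadjusted p under 0.05, edgeR counted 2 members in HPSC, 3 in MC and 1 in EC, where 7.6%, 0.431% and 4.29% of all tested genes had such a p. DESeq2 passed Gata1 and Epor in HPSC, Gata1 and Car2 in MC and Tfrc in EC after adjustment, beside 929, 5 and 405 genes in all that it passed in HPSC, MC and EC, and limma-voom passed none of the members. The difference of the fraction effect between populations was tested as an interaction. No member passed (edgeR adjusted p = 1 for each of the 8, with 0% of all tested genes passing), and 1 member, Car2, had an unadjusted p under 0.05 (0.0231), as had 2.27% of all tested genes. For Car2, the mean was 424 ± 196 CPM in positive and 888 ± 484 CPM in negative HPSC, and 84.0 ± 54.9 CPM in positive and 81.7 ± 29.5 CPM in negative EC.

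Explant culture was compared with fresh AGM in 6 blocks of the same population and fraction. Tfrc averaged 238 ± 135 CPM in explants and 109 ± 57.4 CPM in fresh cells and was higher after culture in 6 of 6 blocks (1.11 ± 0.28, edgeR adjusted p = 0.176). Of all tested genes, 5.72% were higher in every block. No member passed, where 0.136% of all tested genes passed, and edgeR counted 1 member at an unadjusted p under 0.05, as for 8.58% of all tested genes. DESeq2 passed Tfrc (adjusted p = 0.00671) among 464 genes in all, and limma-voom passed none. The medians were 0.55 over the members and 0.18 over all tested genes.

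Cyclopamine-treated explants were compared with untreated explants in the same way. Tfrc averaged 369 ± 246 CPM with cyclopamine and 238 ± 135 CPM without and was higher in 5 of 6 blocks (0.66 ± 0.28, edgeR adjusted p = 0.54), with BRE-GFP negative HPSC as the exception. No member passed and 0% of all tested genes did; edgeR counted 1 member at an unadjusted p under 0.05, as for 8.13% of all tested genes, and DESeq2 and limma-voom passed no member. The medians were -0.03 over the members and -0.27 over all tested genes. The lowest and highest Tfrc values after cyclopamine were 164 CPM in BRE-GFP positive EC and 826 CPM in BRE-GFP negative EC. Explants without cyclopamine stand in both culture comparisons, so the 2 are not independent.

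Within populations no member passed in either culture comparison. For explants against fresh cells, 0% of all tested genes passed in HPSC and in MC and 0.00616% in EC, and for cyclopamine against untreated explants 0% passed in each. In MC, explants stood above fresh cells for Gata1 (29.7 ± 18.4 CPM in explants, 9.64 ± 12.8 CPM in fresh cells; 2.72 ± 0.91), Tfrc (1.46 ± 0.45) and Car2 (2.14 ± 0.78), each with an adjusted p of 0.983. Alas2 (2.91 ± 2.08) and Epb4.2 (2.58 ± 2.99) had fitted values above 2 there, and the fresh BRE-GFP positive library, the lowest MC library for each of these 5 genes, is 1 of the 2 fresh ones behind the values. Without it the fitted values were 1.58 for Gata1, 1.25 for Tfrc, 0.83 for Car2, 0.71 for Alas2 and 0.55 for Epb4.2 (edgeR adjusted p = 1 for each). In HPSC, Tfrc was higher in explants (1.04 ± 0.44, edgeR adjusted p = 1), and Epor (3.19 ± 2.40) and Slc4a1 (-3.99 ± 3.13) had adjusted p of 1. In EC, Epor (-2.04 ± 2.09) and Klf1 (-2.99 ± 3.93) had adjusted p of 1.

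With cyclopamine, Tfrc in EC averaged 495 ± 468 CPM, against 185 ± 107 CPM in untreated explants (1.16 ± 0.45, edgeR adjusted p = 0.922). Slc4a1 in EC stood at 0.08 and 0 CPM with cyclopamine and at 6.12 and 7.82 CPM without (edgeR adjusted p = 0.922), where the fitted value of -7.21 ± 3.02 depends on the handling of low counts. Alas2 (-2.01 ± 1.84) and Epor (2.86 ± 2.28) in EC had adjusted p of 0.954 and 0.931. In HPSC, Epb4.2 was at 0 in both cyclopamine libraries and at 1.0 and 1.43 CPM in the untreated explants (fitted value -7.50 ± 4.28, adjusted p = 0.704), and Epor had -2.18 ± 2.57 (0.797). In MC, Epor had 2.17 ± 2.05 (adjusted p = 1). At an unadjusted p under 0.05, edgeR counted 1, 3 and 0 members for explants against fresh cells in HPSC, MC and EC, where 4.31%, 2.48% and 2.3% of all tested genes had such a p. For cyclopamine it counted 0, 0 and 2 members, beside 5.92%, 0.659% and 4.2% of all tested genes, and neither DESeq2 nor limma-voom passed a member. The interaction of culture with population passed for no member (edgeR adjusted p = 1, with 0% of all tested genes passing), and 1 member, Gata1 under cyclopamine, had an unadjusted p under 0.05 (0.0486). Such a p was found for 1.56% of all tested genes in that interaction and for 0.998% in the one for explants.

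Between single libraries, Gata1 under cyclopamine differed in direction by population and fraction, though neither the interaction nor any within-population edgeR test passed. HPSC stood at 71.6 and 436 CPM with cyclopamine in positive and negative cells, against 30.0 and 98.2 CPM without. The 436 CPM was measured in the library of fewest counted reads. EC stood at 11.1 and 64.6 CPM with cyclopamine in positive and negative cells, against 61.1 and 103 CPM without. Every HPSC value was thus higher, and every EC value lower, than its untreated partner. In MC the positive cells were lower with cyclopamine (8.18 against 16.7 CPM) and the negative cells higher (59.4 against 42.8 CPM).

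Hbb-y, an embryonic beta-like globin gene of primitive red cells, was set beside the members. In MC it stood at 2242 and 2019 CPM in positive and negative cells with cyclopamine, against 24740 and 12110 CPM in untreated explants. Slc4a1 in the same MC libraries stood at 23.9 and 100.1 CPM with cyclopamine, against 30.1 and 65.8 CPM without, and Epb4.2 at 8.05 and 49.8 CPM, against 16.7 and 40.0 CPM. Alas2 stood at 90.2 and 202 CPM with cyclopamine, against 366 and 322 CPM without. Hbb-y and Alas2 were thus lower with cyclopamine in both fractions of MC, while Slc4a1 and Epb4.2 were lower in positive and higher in negative MC. Within MC, neither Alas2 nor any of the 5 tested globin genes passed for this comparison by edgeR, DESeq2 or limma-voom. Of the 5 globin genes, 2 had an unadjusted p under 0.05 by edgeR. In EC, Hbb-y stood at 4.97 and 5.98 CPM in positive and negative cells with cyclopamine, against 659.5 and 409 CPM without, and Car2 at 46.2 and 69.8 CPM, against 147 and 59.9 CPM. Like Hbb-y, Alas2 and Slc4a1 were lower with cyclopamine in both fractions of EC. Alas2 stood at 13.4 and 0 CPM with cyclopamine, against 22.5 and 15.8 CPM without, and Slc4a1 at 0.08 and 0 CPM, against 6.12 and 7.82 CPM. Car2 was lower in positive and higher in negative EC. Epb4.2 was higher in positive and lower in negative EC (4.97 and 0 CPM with cyclopamine, 4.57 and 20.8 CPM without). HPSC kept 5719 and 9904 CPM of Hbb-y with cyclopamine, against 7245 and 7565 CPM without.

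**Figure D4:**
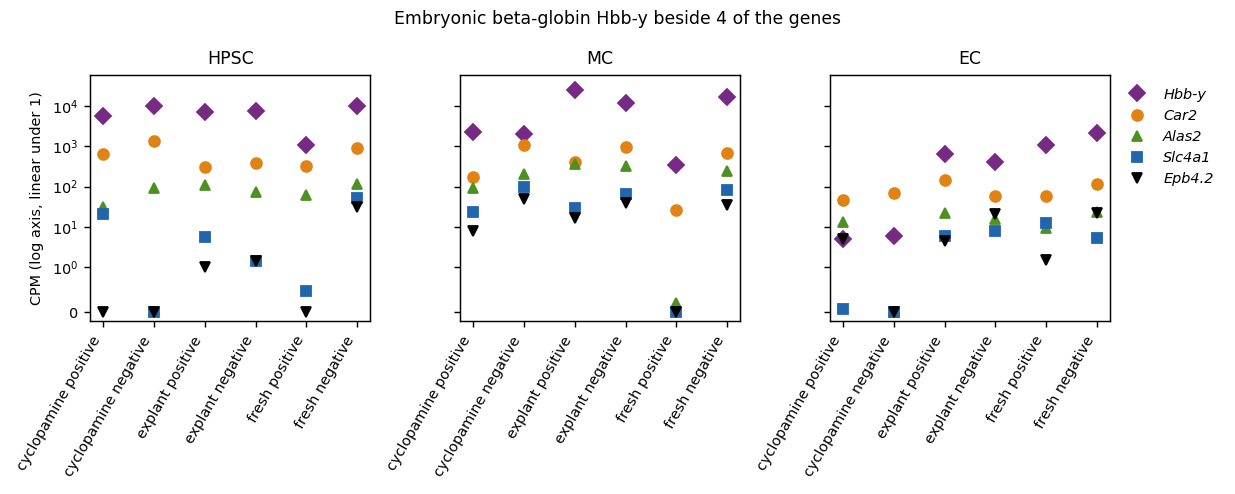
CPM (log axis, linear under 1) of Hbb-y, Car2, Alas2, Slc4a1 and Epb4.2 in the 6 libraries of HPSC, MC and EC, 1 point per gene and library, with cultures and BRE-GFP fractions along the horizontal axis. Hbb-y in EC is at 4.97 and 5.98 CPM in the cyclopamine libraries, and fresh BRE-GFP positive MC has the lowest value of the 6 MC libraries for all 5 genes.

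Other genes of the red cell programme were counted from lists. Of 11 further erythroid transcription factor genes, Lmo2, which bridges GATA1 and TAL1 in a DNA-binding complex, was the 1 that passed by edgeR in any of the 6 comparisons over all populations. It averaged 70.1 ± 34.7 CPM in HPSC and 4.39 ± 3.49 CPM in MC (3.85 ± 0.78, edgeR adjusted p = 0.00467), where 9.95% of all tested genes passed. MC also stood below EC, where Lmo2 averaged 45.9 ± 32.2 CPM (-3.25 ± 0.80, edgeR adjusted p = 0.0362), in a comparison in which 2.54% passed. DESeq2 passed 2 of the 11 factors for HPSC over MC, 2 for MC over EC and 1 for HPSC over EC, and limma-voom passed 1, 1 and 0. In these comparisons DESeq2 passed 3593, 1236 and 795 genes in all. The median over the 11 factors was 1.23 for HPSC over MC and -0.79 for MC over EC, beside -0.38 and 0.20 over all tested genes.

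None of the 12 other heme synthesis genes, 15 other membrane and skeleton genes, 9 other erythropoietin signalling genes, 8 other iron genes, 8 late erythroid genes and 5 globin genes that were tested passed by edgeR in these 6 comparisons. At an unadjusted p under 0.05, the counts for MC over EC were 1 heme, 3 membrane, 0 erythropoietin, 1 iron, 0 late erythroid and all 5 globin genes. For HPSC over MC they were 1, 1, 2, 2, 1 and 0, and for HPSC over EC 0, 0, 0, 0, 0 and 2. For BRE-GFP positive over negative cells 2 membrane and 3 iron genes had such a p, for explants over fresh cells 1 heme, 2 membrane, 1 late erythroid and 1 globin gene, and for cyclopamine over untreated explants none. Over all tested genes, 11.4%, 25.1%, 9.32% and 5.3% had such a p for MC over EC, HPSC over MC, HPSC over EC and the fractions. The shares were 8.58% for explants over fresh cells and 8.13% for cyclopamine over untreated explants. DESeq2 passed 3 membrane, 2 erythropoietin, 1 heme and 1 late erythroid gene for HPSC over MC, 2 membrane and 4 globin genes for MC over EC, 3 globin genes for HPSC over EC and 1 membrane and 1 late erythroid gene for explants over fresh cells. In the same 4 comparisons DESeq2 passed 3593, 1236, 795 and 464 genes in all. Limma-voom passed 2 globin genes for MC over EC and 1 erythropoietin and 2 iron genes for HPSC over MC. Its counts over all tested genes are not given here.

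By direction of the fitted values, 12 of 15 membrane genes were above 0 for MC over EC (median 2.15) and 12 of 15 were below 0 for HPSC over MC (median -0.88). The medians over all tested genes were 0.20 and -0.38, on the same sides of 0. The share of all tested genes on each side of 0 was not counted, here or for the fractions. For BRE-GFP positive over negative cells, 12 of 15 membrane genes (median -0.31), 10 of 12 heme genes (median -0.26), 7 of 8 iron genes (median -0.54) and 5 of 5 globin genes (median -0.75) were below 0, beside 0.11 over all tested genes.

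Likeness of pattern was measured as Pearson's r of log2(CPM + 1) over the 18 libraries, as a description of libraries that share populations and cultures. It was searched among 9432 other genes with a mean of at least 10 CPM, leaving out predicted genes (Gm and Rik names). Frrs1 (0.898) and Stxbp2 (0.885) were most like Gata1, Ssx2ip (0.792) and Rhd (0.785) like Klf1, and Pml (0.83) and C80913 (0.806) like Epor. Hsd3b6 (0.853) and Tom1l1 (0.843) were most like Alas2, Cul5 (0.848) and Ank (0.804) like Tfrc, and Rhd (0.907) and Tmem151b (0.854) like Slc4a1. Hsd3b6 and Rhag (0.826 each) were most like Car2, and Dach2 (0.904) and Rpusd1 (0.857) like Epb4.2. Rhd and Rhag encode members of the Rh blood group complex of the red cell membrane.

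Among the 8 members themselves, the pairs of highest r over the 18 libraries were Alas2 with Car2 (0.82) and Slc4a1 with Epb4.2 (0.763). Alas2 with Slc4a1 (0.661), Klf1 with Slc4a1 (0.653) and Klf1 with Epb4.2 (0.645) followed. Gata1 had an r of 0.63 with Tfrc and 0.576 with Epor, and of 0.0781 with Slc4a1 and 0.074 with Epb4.2. Epor had an r of -0.159 with Slc4a1. Gata1, Epor and Tfrc on the one side and Klf1, Alas2, Slc4a1 and Epb4.2 on the other thus had their closest partners, Car2 aside, within their own side.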

How the data were processed

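The deposited tables hold counts of reads per gene symbol for each of the 18 libraries. Libraries were made with the SMARTER protocol from total RNA, per the labels' protocols. The tools named are TopHat, Cufflinks and HTSeq, with build mm10, per the submitters' processing notes. The strand setting of the counting is not given in the sources used here. Reads at no feature, 19.5% to 49.4% of a library's entries, and ambiguous ones (0.479% to 0.935%) stayed out of totals and tests. Genes with 10 counts at the median library size (0.796 CPM) in at least 3 libraries were tested across all 16231 symbols with edgeR 4.0.16 (quasi-likelihood F test, TMM scaling, R 4.3.3), with matched combinations as blocks and Benjamini-Hochberg adjustment over all of them. The tests of populations and of BRE-GFP fractions were tried on simulated counts. Those counts were drawn with less spread than the fits found here, so the trial does not show how the tests behave on these libraries. There is 1 library per combination, nothing says that libraries come from separate embryos, and p-values measure the spread between these libraries, which may be technical.

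Alternatives were RLE scaling, no filter, DESeq2 1.42.0, limma-voom 3.58.1, globin genes left out of totals, the share of no-feature reads as a covariate, main effects in place of blocks, and each library left out. Members and gene lists were chosen with earlier results of these data known. Members are named throughout, with fitted values where the unadjusted p was under 0.05 or the log2 fold change reached 2. Other listed erythroid genes are named where the adjusted p was under 0.05, and 2 genes per member by likeness. Floors cover counting error only, while the SD and SE values carry the spread between these libraries. Gene positions are from GENCODE M21. One listed gene is not reported here.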

Additional observations from a re-analysis of the deposited data

Results flagged for a closer look

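Each gene was looked at within the 6 libraries of a population for a lowest or highest value far from the rest, by the gap to its neighbour as a share of the whole range. For 6 normally distributed replicates of 1 condition, chance flags about 1 in 20 groups. These libraries differ in culture and fraction, so the rate here is not known. Gata1 at 436 CPM and Epor at 29.8 CPM stood apart in HPSC, both in BRE-GFP negative cells after cyclopamine, the library of fewest counted reads. Tfrc at 826 CPM stood apart in EC, in BRE-GFP negative cells after cyclopamine. Epb4.2 at 31.1 CPM stood apart in HPSC, in fresh BRE-GFP negative cells, where Slc4a1 was also at its HPSC maximum of 52.1 CPM.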

How the results depend on the processing

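With 1 library per combination, no replicate of a single combination could be left out, and the 18 libraries were left out in turn. The tests pair libraries of the same culture, fraction or population as blocks, and main effects in place of blocks is the fit without that pairing. RLE scaling and globin genes left out of the totals changed no count of members past the threshold.

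Of the members past the threshold, HPSC against EC had 1, and 0 with the no-feature share as covariate and 2 without the 3 libraries of fewest detected symbols, 1 per population, a setting chosen after seeing the data. HPSC against MC had 1, and 2 by DESeq2, limma-voom and without those libraries, and 0 with the covariate. MC against EC had 1, and 3 by DESeq2, 2 without the filter, by limma-voom, without those libraries and with main effects in place of blocks, and 0 with the covariate. Explants against fresh cells had 0, and 1 by DESeq2. BRE-GFP positive against negative cells had 1, and 2 without the filter, by DESeq2 and by limma-voom, and 0 with the covariate and without those libraries; within HPSC, MC and EC it had 0, and 2, 2 and 1 by DESeq2. Leaving out each library gave 0 to 1 for HPSC against EC, 0 to 2 for HPSC against MC and for MC against EC, and 0 in each of the other comparisons. The adjusted p over the settings other than leaving out 1 library ran from 2.93e-05 to 0.195 for Car2 in HPSC against EC, 2.05e-04 to 0.231 for Gata1 in HPSC against MC, 0.001 to 0.0773 for Car2 in MC against EC and 3.91e-07 to 0.329 for Tfrc by fraction, each lowest by DESeq2 and highest with the covariate.

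Fitted values that changed sign belonged to Slc4a1, Klf1, Epb4.2 and Epor, none past the threshold in any of these fits. With the covariate they were 6.71 for Slc4a1 in HPSC explants against fresh cells, 1.80 for Klf1 and 4.34 for Epb4.2 by fraction in HPSC and 0.67 for Klf1 in EC explants against fresh cells. Without the 3 libraries, Klf1 by fraction in EC had -0.83. Leaving out each library gave -0.63 to 4.96 for Epor and -5.97 to 4.96 for Slc4a1 in HPSC explants against fresh cells, -4.33 to 1.26 for Epor in HPSC with cyclopamine against untreated explants, -7.38 to 3.22 for Klf1 in EC explants against fresh cells and -0.71 to 6.06 for Klf1 by fraction in EC. The cause was not tested.

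Counts over all tested genes by DESeq2 were 795 for HPSC against EC (52 by edgeR), 3593 for HPSC against MC (1615), 1236 for MC against EC (413), 464 for explants against fresh cells (22), 172 for cyclopamine against untreated explants (0) and 365 for the fractions (9). With the covariate these were 5, 518, 388, 0, 0 and 0. Leaving out each library gave 1 to 77 for HPSC against EC, 902 to 1888 for HPSC against MC, 258 to 492 for MC against EC, 7 to 39 for explants against fresh cells and 0 to 6 for the fractions. Within populations, DESeq2 gave 0 to 929 in the 9 comparisons and edgeR 0 to 6, and leaving out each library by edgeR gave 0 to 612 for cyclopamine in HPSC, 0 to 185 for cyclopamine in EC and at most 13 in the other 7; the 612 and the 185 came without the BRE-GFP positive library after cyclopamine of that population. Depth limits the low genes: 3 counts were 1.13 CPM in BRE-GFP negative HPSC after cyclopamine and 0.599 CPM in fresh BRE-GFP positive MC, while Klf1 did not exceed 6.47 CPM in any library.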

Other observations

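A pair of other red cell membrane genes, chosen after their values were seen, was followed in the same libraries. Rhd, an Rh blood group gene, stood at 18.3, 54.2 and 0 CPM in BRE-GFP positive MC after cyclopamine, after explant culture and fresh, against 144, 134 and 76.5 CPM in negative MC of the same cultures. Rhd reached at most 33.3 CPM in HPSC and 13.02 CPM in EC. Rhag, the Rh-associated glycoprotein gene, reached 98.8 and 108 CPM in BRE-GFP negative HPSC after cyclopamine and after explant culture, against 13.9 and 28.7 CPM in positive HPSC. Its levels in fresh HPSC, in MC and in EC are not given here.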
